A study of Mus musculus with 8 samples.

Results

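The genes described here are 34 interferon-induced genes, measured in the kidneys of mice that lack the collagen chain gene Col4a3, with or without osteopontin. They were chosen by name as members of the interferon response, and for each gene the probe set with the highest mean over the arrays was used. Of the 34 members, 31 had a probe set that names no other gene, out of 22180 genes measured in that way. Oas1a and Gbp2 lie on probe sets that also name Oas1g and Gbp2b, and their values are given apart from the rest. Ifi44 is not analysed here. The members fall into 7 roles, and 13 of them had a mean above the filter on low values (a log2 value of 6.64), so that the test across all genes was run on these 13, while 18 lay below it.

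The series holds 8 arrays of whole kidney, 1 per mouse, from mice 2 months old. The 3 Col4a3-/-OPN-/- mice, called double mutants, lack Col4a3 and osteopontin, the 3 Col4a3-/- mice, called single mutants, lack Col4a3 alone, and the 2 wild type mice lack neither. Loss of Col4a3, a chain of the type IV collagen of the glomerular basement membrane, is a model of Alport syndrome, and the series title concerns the effect of losing osteopontin, a secreted matrix protein and cytokine, on that disease. The labels name no promoter or cell type for the deletions, so the kidneys and every cell that enters them are taken to lack the genes, and the sources used here give neither strain nor litter.

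Values are log2 expression values as deposited, and a difference is the first group named minus the second. Array medians over all probe sets lay between 5.18 and 5.25. Sex is not among the labels, and it was read from Xist and Y-linked genes: both wild type mice, single mutant 2 and double mutant 3 read as male, and the other 4 mice as female. Each comparison is therefore given without sex in the model and again with it. The sex effect is then estimated from the mutants alone, since no wild type female was measured. Col4a3 itself measured between 6.13 and 7.60 in double mutants and between 6.60 and 7.67 in single mutants, against 8.42 and 8.77 in wild type, and neither difference from wild type passed the test in either fit (smallest adjusted p = 0.0657). The defining markers of the kidney were present, with a mean over 6 proximal tubule genes of at least 9.79 on every array. Single mutant 2 held that lowest value, against 10.92 and 11.21 in the other single mutants. The counts of calls in the fit with sex are given with and without this array, as are the medians without sex that rest on it. Medians of the fit with sex are given over all 8 arrays alone. Nothing in the labels ties the mice of 1 group to separate litters, and the p-values measure the spread between these 8 mice only.

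Interferons are cytokines that a cell releases on sensing foreign or misplaced nucleic acid or on activation of a lymphocyte. Type I interferons, through the receptor of Ifnar1 and Ifnar2, activate a complex of STAT proteins with Irf9 that binds the interferon-stimulated response element (ISRE). Interferon gamma, through Ifngr1 and Ifngr2, activates a STAT dimer that binds the gamma-activated site (GAS) and induces Irf1, guanylate-binding proteins and the machinery that loads peptides onto MHC class I. In the kidney the response is known from infection, lupus nephritis and inflammation of the tubules and interstitium.

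The letters of both elements were looked up in the promoters of the members, from 250 bases before to 50 bases after the annotated start site (RefSeq, GRCm38.p6). The table held 30 such promoters for 26 of the 34 members. ISRE was searched as GAAANNGAA and GAS as TTCNNNGAA, where N is any base, on both strands. The ISRE letters were in 15 of 30 member promoters (50%) and in 8.56% of all 32851 promoters of the table. The GAS letters were in 8 of 30 (26.7%) and in 8.3% of all promoters, and both were in 4 of 30 (13.3%) and in 1.07% of all. A match is a description of the sequence and not a shown binding site. For 7 of the 26 members, among them Tap1, Irf7 and Irf9, neither run of letters was in the window.

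The promoters printed are those of the member with the largest difference from wild type in each role whose promoter held either motif, to show what the matches look like. Gbp7 was added after its values were seen, because it is the one guanylate-binding protein above the filter and its promoter held both. Capitals mark the motif letters, with overlapping matches run together, and the sequences run 5′ to 3′ on the strand of the gene.
Irf1: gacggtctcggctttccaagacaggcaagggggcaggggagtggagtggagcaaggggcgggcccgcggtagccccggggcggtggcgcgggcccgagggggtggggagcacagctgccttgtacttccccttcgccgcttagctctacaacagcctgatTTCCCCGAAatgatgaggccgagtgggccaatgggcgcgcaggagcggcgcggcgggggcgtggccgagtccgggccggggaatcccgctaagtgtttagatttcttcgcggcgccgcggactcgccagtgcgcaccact
Ddx58: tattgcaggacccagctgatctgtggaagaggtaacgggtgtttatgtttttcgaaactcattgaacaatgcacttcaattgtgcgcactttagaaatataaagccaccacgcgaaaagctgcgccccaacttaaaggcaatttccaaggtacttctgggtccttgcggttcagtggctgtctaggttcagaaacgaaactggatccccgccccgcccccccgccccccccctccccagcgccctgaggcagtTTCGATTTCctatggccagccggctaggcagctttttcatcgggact
Ifit2: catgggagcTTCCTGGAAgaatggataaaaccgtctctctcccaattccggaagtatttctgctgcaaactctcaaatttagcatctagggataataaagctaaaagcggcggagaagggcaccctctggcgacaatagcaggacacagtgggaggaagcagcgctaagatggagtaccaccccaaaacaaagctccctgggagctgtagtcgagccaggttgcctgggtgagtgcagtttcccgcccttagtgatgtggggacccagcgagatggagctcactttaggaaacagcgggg
Oas3: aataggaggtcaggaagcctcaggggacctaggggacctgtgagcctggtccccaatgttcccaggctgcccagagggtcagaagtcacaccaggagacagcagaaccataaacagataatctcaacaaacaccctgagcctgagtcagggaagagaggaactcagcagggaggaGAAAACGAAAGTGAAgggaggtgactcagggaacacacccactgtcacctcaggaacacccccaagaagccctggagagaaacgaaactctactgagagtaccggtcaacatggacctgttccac
Isg15: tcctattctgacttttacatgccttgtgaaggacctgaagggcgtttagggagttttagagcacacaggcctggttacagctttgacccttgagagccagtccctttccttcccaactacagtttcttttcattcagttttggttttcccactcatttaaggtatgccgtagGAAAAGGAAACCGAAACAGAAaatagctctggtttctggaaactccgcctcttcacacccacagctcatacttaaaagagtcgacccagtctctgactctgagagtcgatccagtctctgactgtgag
Gbp3: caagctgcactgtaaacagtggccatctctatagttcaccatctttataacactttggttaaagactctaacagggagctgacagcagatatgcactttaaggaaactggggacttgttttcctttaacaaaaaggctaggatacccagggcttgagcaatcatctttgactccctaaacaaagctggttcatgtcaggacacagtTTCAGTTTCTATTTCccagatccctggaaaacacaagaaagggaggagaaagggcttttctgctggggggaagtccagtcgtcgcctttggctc
Gbp7: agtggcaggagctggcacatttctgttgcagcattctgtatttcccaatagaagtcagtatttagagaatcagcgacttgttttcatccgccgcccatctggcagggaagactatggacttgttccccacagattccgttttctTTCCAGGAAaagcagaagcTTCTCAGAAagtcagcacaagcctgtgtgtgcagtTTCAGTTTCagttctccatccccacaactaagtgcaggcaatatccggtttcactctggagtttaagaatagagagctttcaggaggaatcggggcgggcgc
Psmb8: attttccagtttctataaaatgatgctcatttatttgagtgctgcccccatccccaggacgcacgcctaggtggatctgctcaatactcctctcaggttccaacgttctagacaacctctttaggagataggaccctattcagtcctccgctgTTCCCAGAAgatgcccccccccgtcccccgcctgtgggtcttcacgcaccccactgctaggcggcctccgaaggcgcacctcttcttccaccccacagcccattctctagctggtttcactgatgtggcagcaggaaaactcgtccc
These lie, in the same order, at chr11:53769764-53770063 (plus strand), chr4:40239776-40240075 (minus strand), chr19:34550444-34550743 (plus strand), chr5:120777610-120777909 (minus strand), chr4:156200769-156201068 (minus strand), chr3:142559794-142560093 (plus strand), chr3:142530086-142530385 (plus strand) and chr17:34197945-34198244 (plus strand). With the start site counted as position 0, the GAS letters of Irf1 begin at -90 and those of Psmb8 at -97, while the Ifit2 match lies far out at -241. The ISRE letters of Ddx58 begin at 3, after the start. Isg15 holds 3 overlapping ISRE matches between -78 and -58, Oas3 holds 2 between -75 and -61, and Gbp3 holds 2 between -44 and -30. Gbp7 holds GAS letters at -106 and -87 and ISRE letters at -52.

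**Figure D1:**
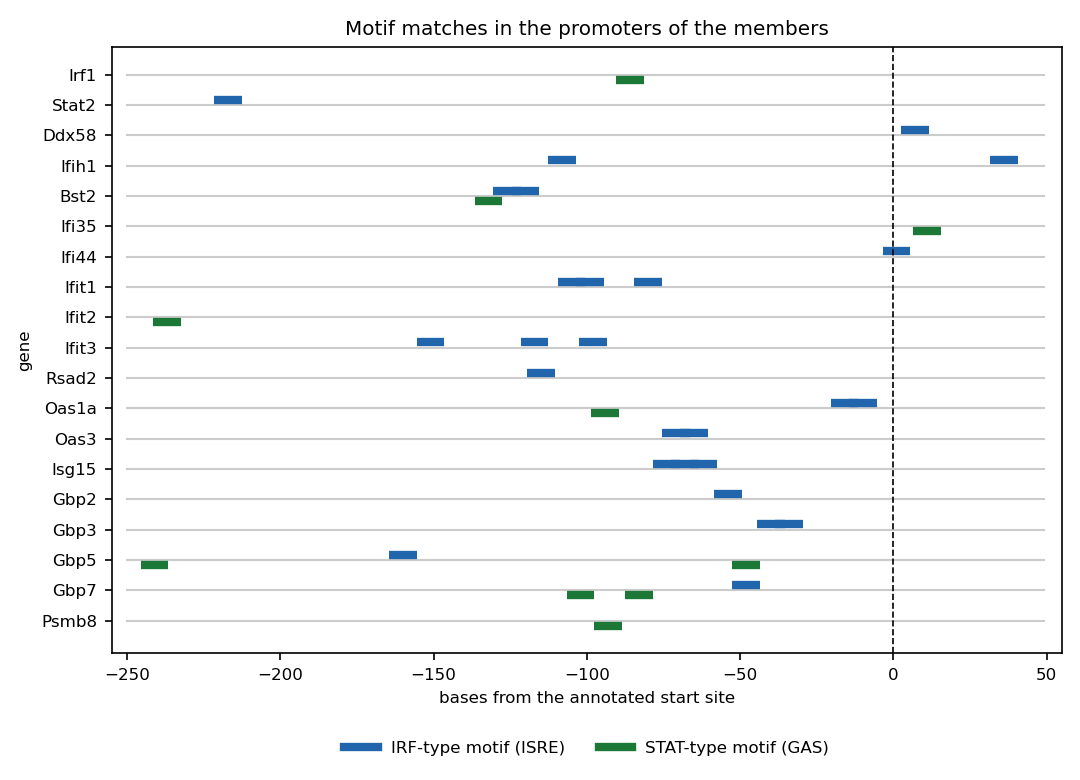
Positions of the ISRE letters (blue) and the GAS letters (green) in the promoters of members that hold at least 1 match. The x axis is the distance in bases from the annotated start site (dashed line) and each row is 1 promoter. Isg15 shows 3 overlapping matches between -78 and -58, Ifit2 has its match at -241, and that of Ddx58 begins at 3, after the start.

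Interferon-induced genes were higher in the mutants of both genotypes than in wild type, by a modest amount and over many members. The difference between double mutants and wild type was above 0 for 31 of 31 members and had a median of 0.52, where the median over all 22180 genes was -0.01. Between single mutants and wild type it was above 0 for 30 of 31 members, with a median of 0.45 against -0.01 over all genes. Of the 13 members above the filter, 13 were above 0 in each comparison. The share of all genes above the filter was 40.8% in double mutants and 42.8% in single mutants. The largest difference was that of Oasl2 in double mutants, at 1.18, and that of Gbp3 in single mutants, at 1.33, and the lowest of all was -0.03, for Oasl1 in single mutants. In whole kidney, more RNA of a gene per cell and more cells that express it cannot be told apart.

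Whether a member passed the test depended on the term for sex. In the fit without sex, none of the 13 tested members was called (adjusted p under 0.05 in limma) in the comparison of double mutants with wild type, where 0.084% of the 7145 genes were called, or in that of single mutants with wild type, where 0.028% were. At an unadjusted p under 0.05 there were 7 members of 13 in each of these comparisons, against 21.6% of all tested genes in double mutants and 23.2% in single mutants. In the fit with sex, 6 of 13 members rose in double mutants, where 6.4% of tested genes were called higher, and 5 of 13 rose in single mutants, where 7.31% were. None fell. With the term for sex the median over all tested genes was -0.15 in both comparisons, so that the members' medians of 0.74 in double mutants and 0.64 in single mutants are larger when set against that shift. Of the genes called in that fit, 26.4% were higher in double mutants and 26.8% in single mutants, and these shares were between 43% and 46.8% after quantile normalization, median centring or cyclic loess. Under those scalings between 6 and 8 members rose in each comparison, against 9.39% to 11.4% of tested genes.

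Many members were higher on every mutant array than on either wild type array. Between double mutants and wild type this held for 21 of 31 members, 9 of them above the filter, against 15% of all genes and 17.4% of genes above the filter. Between single mutants and wild type it held for 19 of 31 members, 8 of them above the filter, against 15.5% of all genes and 19.3% of those above the filter. None of these 31 members was lower on every mutant array in either comparison. These comparisons share the 2 wild type arrays, so their counts are not separate observations.

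**Figure D2:**
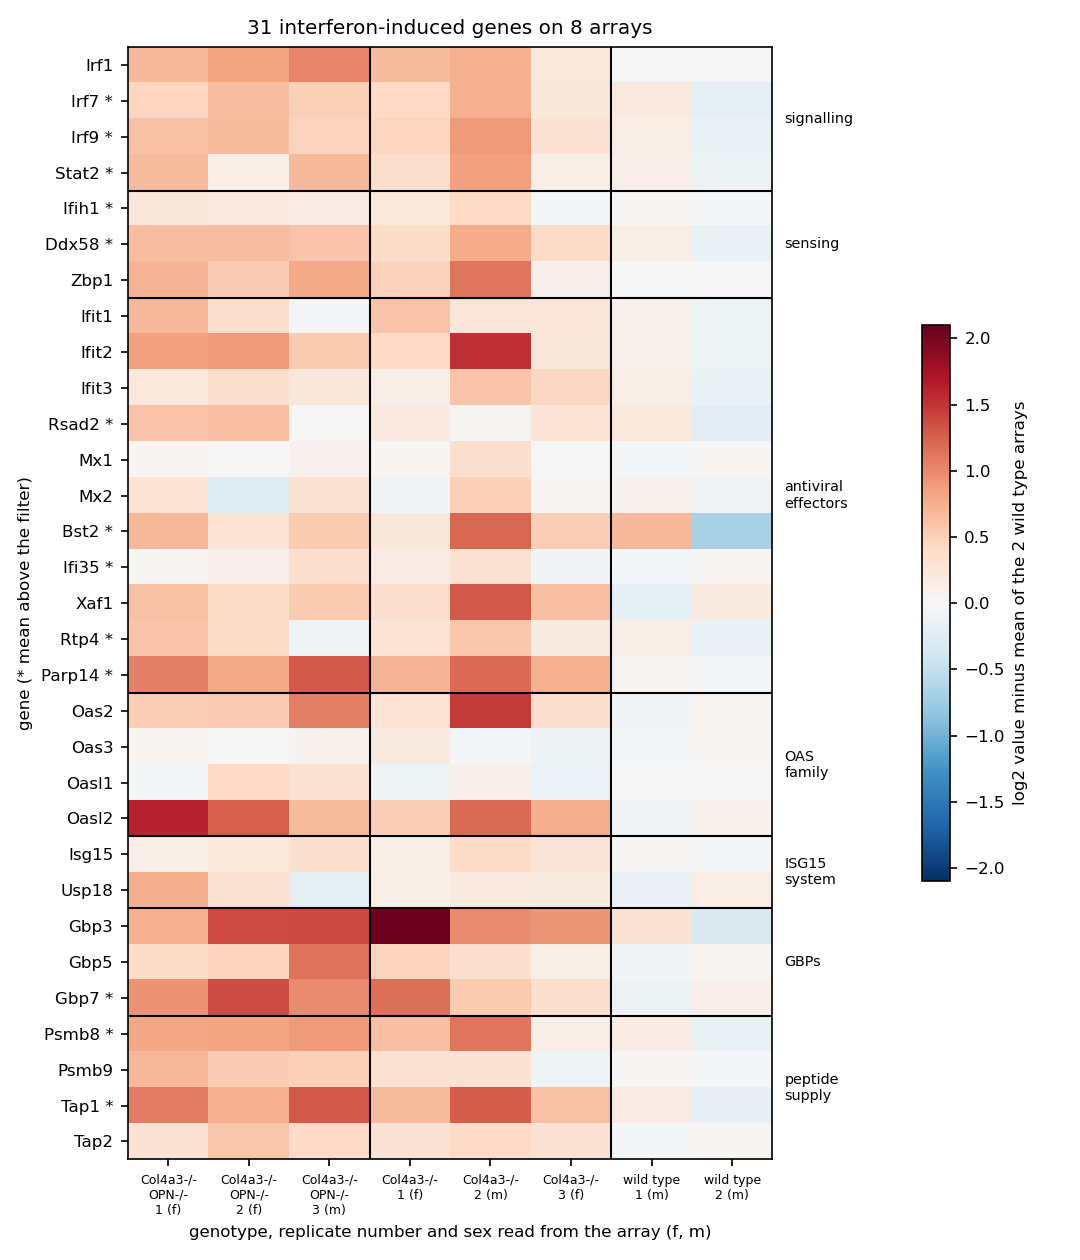
Log2 value of each of the 31 members minus the mean of the 2 wild type arrays (colour), with members in rows by role and arrays in columns by genotype. Most cells of the 6 mutant arrays are red, most evenly in the double mutants, while single mutant 3 is pale. Single mutant 2 holds the highest value of 15 members, a count not made over all genes.

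The members of receptor signalling and transcription were Irf1, Irf7, Irf9 and Stat2. Stat2, a subunit of the complex activated by type I interferon, measured 7.06, 6.52 and 7.08 in double mutants, 6.77, 7.26 and 6.51 in single mutants, and 6.51 and 6.28 in wild type. Every mutant array lay above both wild type arrays, but double mutant 2 and single mutant 3 only just did. Stat2 rose with the term for sex, by 0.79 (SE 0.23, adjusted p = 0.0421) in double mutants and by 0.75 (SE 0.23, adjusted p = 0.0453) in single mutants, against 0.49 and 0.45 without the term. Both calls of Stat2 were close to the threshold and were lost when either wild type array or single mutant 2 was left out, among others.

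Irf9, the subunit that gives the same complex its DNA contact, measured 7.14, 7.19 and 6.99 in double mutants, 6.98, 7.42 and 6.84 in single mutants, and 6.66 and 6.40 in wild type. The groups did not overlap with wild type, but the differences of 0.69 and 0.66 in the fit with sex (SE 0.21 each) missed the threshold, at an adjusted p of 0.0516 in double mutants and 0.0554 in single mutants. Irf7, the factor that amplifies type I interferon production, measured 6.99, 7.18 and 7.03 in double mutants, 6.97, 7.29 and 6.77 in single mutants, and 6.74 and 6.34 in wild type. Single mutant 3 was just above wild type 1 in Irf7, and the adjusted p in the fit with sex was 0.059 in double mutants and 0.073 in single mutants. Irf1, induced most directly by interferon gamma, lay below the filter. It measured 6.79, 6.94 and 7.14 in double mutants, 6.78, 6.86 and 6.32 in single mutants, and 6.11 on both wild type arrays, and its promoter, printed above, held the GAS letters.

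The sensing members were Ddx58, Ifih1 and Zbp1. Ddx58, known as RIG-I, a sensor of viral RNA in the cytosol, measured 7.39, 7.39 and 7.35 in double mutants, 7.13, 7.53 and 7.16 in single mutants, and 6.89 and 6.60 in wild type. The double mutants were close to each other, averaging 7.38 ± 0.03 (SD, n = 3), where wild type averaged 6.75 ± 0.21 (SD, n = 2). Ddx58 rose with the term for sex by 0.74 (SE 0.18, adjusted p = 0.0243) in double mutants and by 0.64 (SE 0.18, adjusted p = 0.0343) in single mutants. Without wild type 2 or without single mutant 2 neither call held, and the single mutant call was also lost without double mutant 1 (adjusted p = 0.0517).

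Ifih1, known as MDA5, which senses long double-stranded RNA, differed from wild type by only 0.21 in double mutants and 0.20 in single mutants without sex, and it passed no test. Its values were 7.47, 7.44 and 7.40 in double mutants, 7.45, 7.66 and 7.19 in single mutants, and 7.25 and 7.21 in wild type. Single mutant 3 was the lowest of all 8 arrays in Ifih1. Zbp1, a sensor of Z-form nucleic acid that can start necroptosis, lay below the filter and measured 6.16, 5.98 and 6.23 in double mutants, 5.93, 6.57 and 5.55 in single mutants, and 5.43 and 5.45 in wild type.

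Among the antiviral effectors, Parp14 stood out. Parp14, a mono-ADP-ribosyltransferase that takes part in macrophage responses to interferon, measured 7.10, 6.83 and 7.32 in double mutants, 6.75, 7.23 and 6.78 in single mutants, and 6.06 and 6.02 in wild type. The lowest mutant array was well above both wild type arrays, which were close together. Its difference with sex was 1.32 (SE 0.15, 2.5-fold, adjusted p = 0.00467) in double mutants and 1.16 (SE 0.15, 2.23-fold, adjusted p = 0.00726) in single mutants. Without sex the differences were 1.05 and 0.88, with an adjusted p of 0.0688 in double mutants and 0.0936 in single mutants, the smallest among the members. In double mutants the call with sex held without any 1 of the 8 arrays, but in single mutants it was lost without wild type 2 (adjusted p = 0.0554) or without single mutant 2 (adjusted p = 0.0756).

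The other 4 effectors above the filter passed no test. Bst2, known as tetherin, which holds budding virus at the membrane, had wild type values of 7.0 and 5.65, a gap wider than its difference between any 2 genotypes. Bst2 measured 7.02, 6.62 and 6.87 in double mutants and 6.57, 7.54 and 6.84 in single mutants, and in the fit without sex its difference turned negative in both genotypes when wild type 2 was left out, while with sex it stayed above 0 without any 1 array. Rsad2, known as viperin, an enzyme that makes a chain-terminating nucleotide, measured 7.25, 7.28 and 6.66 in double mutants, 6.86, 6.71 and 6.94 in single mutants, and 6.88 and 6.43 in wild type. Its single mutant difference was 0.18 without sex and -0.08 with sex, so no direction can be given for it.

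Rtp4, an interferon-induced inhibitor of viral replication, and Ifi35, a leucine zipper protein, were also close to wild type. Rtp4 differed by 0.22 (SE 0.26) in double mutants and 0.27 (SE 0.26) in single mutants with sex. Ifi35 differed by 0.33 (SE 0.14) in double mutants and 0.32 (SE 0.14) in single mutants in the same fit, with an adjusted p of 0.114 and 0.118. The probe set of Ifi35 was 1 of 2 for that gene, and the other had a mean of 5.06.

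Below the filter lay Ifit1, Ifit2 and Ifit3, which bind viral RNA or hinder its translation, the dynamin-like GTPases Mx1 and Mx2, and Xaf1, a partner of an inhibitor of apoptosis. Their differences without sex were between 0.04 and 0.77 in double mutants and between 0.14 and 0.75 in single mutants. The largest of these in double mutants was that of Ifit2, at 6.44, 6.46 and 6.12 in double mutants, 5.99, 7.09 and 5.80 in single mutants, and 5.66 and 5.48 in wild type. Among single mutants, Ifit2 was highest in single mutant 2, more than 1 log2 unit above the others. Mx1 was nearly flat apart from single mutant 2, at 4.49 to 4.58 in double mutants, 4.48 to 4.87 in single mutants, and 4.46 and 4.52 in wild type.

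No oligoadenylate synthetase gene passed the filter, and they differed among themselves. These enzymes make oligoadenylates that activate RNase L. Oasl2, a related protein, measured 7.22, 6.85 and 6.26 in double mutants, 6.11, 6.79 and 6.36 in single mutants, and 5.53 and 5.67 in wild type. Oas2 measured 5.90, 5.92 and 6.44 in double mutants, 5.66, 6.84 and 5.73 in single mutants, and 5.32 and 5.44 in wild type. All mutant arrays were above wild type for both of these genes. Oas3, next to Oas2 on the chromosome, was flat, between 5.27 and 5.33 in double mutants and between 5.16 and 5.45 in single mutants, against 5.22 and 5.30 in wild type. Oasl1, next to Oasl2, differed by 0.23 in double mutants and -0.03 in single mutants without sex; in the mouse it is known to hold back translation of Irf7. The probe set shared by Oas1a and Oas1g measured 5.27, 5.01 and 5.13 in double mutants, 4.85, 4.91 and 4.75 in single mutants, and 4.94 on both wild type arrays. There the single mutants all lay below both wild type arrays, and the double mutants all above them.

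Both genes of the ISG15 system lay below the filter. Isg15, a ubiquitin-like protein that is attached to other proteins, measured 5.33, 5.41 and 5.53 in double mutants, 5.32, 5.58 and 5.47 in single mutants, and 5.21 and 5.17 in wild type. The mutants of both genotypes lay above wild type and overlapped each other, and the whole span from the lowest to the highest array was under 1 log2 unit. Usp18, which removes Isg15 and dampens the type I receptor, ranged from 5.44 to 6.41 in double mutants and from 5.78 to 5.85 in single mutants, against 5.50 and 5.79 in wild type, so double mutants lay on both sides of wild type.

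The guanylate-binding proteins, GTPases that attack the membranes around intracellular microbes, had some of the largest differences. Gbp7 measured 7.31, 7.74 and 7.38 in double mutants, 7.53, 6.93 and 6.71 in single mutants, and 6.27 and 6.49 in wild type. It rose in double mutants with the term for sex by 0.99 (SE 0.29, adjusted p = 0.0452), and its difference of 0.57 (SE 0.29, adjusted p = 0.174) in single mutants was not called. Whether the genotypes differ in Gbp7 is the question of their direct comparison, given further on. The call in double mutants was the weakest of the 6, lost without either wild type array, without any 1 double mutant or without single mutant 2.

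Gbp3 and Gbp5 lie on either side of Gbp7 on chromosome 3, with no other protein-coding gene between, and both were below the filter. Gbp3 measured 6.05, 6.68 and 6.70 in double mutants, 7.37, 6.30 and 6.23 in single mutants, and 5.61 and 5.01 in wild type. Single mutant 1 was the highest array for Gbp3, not single mutant 2, and it was also the highest single mutant for Gbp7. Gbp5 measured 5.16, 5.23 and 5.92 in double mutants, 5.24, 5.13 and 4.89 in single mutants, and 4.72 and 4.83 in wild type. The probe set shared by Gbp2 and Gbp2b measured 6.64, 7.39 and 6.88 in double mutants, 7.51, 6.83 and 6.30 in single mutants, and 6.22 and 5.48 in wild type, again with single mutant 1 highest.

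The last role, peptide supply to MHC class I, comprised Tap1 and Tap2, the subunits of the transporter that carries peptides into the endoplasmic reticulum, and Psmb8 and Psmb9, catalytic subunits of the immunoproteasome. They lie side by side on chromosome 17 with no other protein-coding gene between. Tap1 measured 7.49, 7.16 and 7.71 in double mutants, 7.08, 7.69 and 7.04 in single mutants, and 6.59 and 6.24 in wild type. All 6 mutants exceeded both wild type arrays, and with the term for sex Tap1 rose by 1.37 (SE 0.19, 2.59-fold, adjusted p = 0.00874) in double mutants and by 1.19 (SE 0.19, 2.28-fold, adjusted p = 0.00945) in single mutants. Without wild type 2 the adjusted p of Tap1 was 0.0606 in double mutants and 0.0647 in single mutants, and without single mutant 2 it was 0.0941 in single mutants.

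Psmb8 measured 6.98, 7.0 and 7.06 in double mutants, 6.81, 7.30 and 6.30 in single mutants, and 6.33 and 6.02 in wild type. The double mutants were tightly placed, at 7.01 ± 0.04 (SD, n = 3), and the single mutants were spread, at 6.80 ± 0.50 (SD, n = 3), with single mutant 3 between the wild type arrays. With the term for sex Psmb8 rose by 1.11 (SE 0.26, adjusted p = 0.022) in double mutants and by 0.90 (SE 0.26, adjusted p = 0.037) in single mutants. The double mutant call was lost without wild type 2 (adjusted p = 0.123), and the single mutant call without either wild type array, single mutant 1 or 2, or double mutant 1. Tap2, below the filter, measured 6.14, 6.42 and 6.26 in double mutants, 6.14, 6.25 and 6.14 in single mutants, and 5.79 and 5.88 in wild type.

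**Figure D3:**
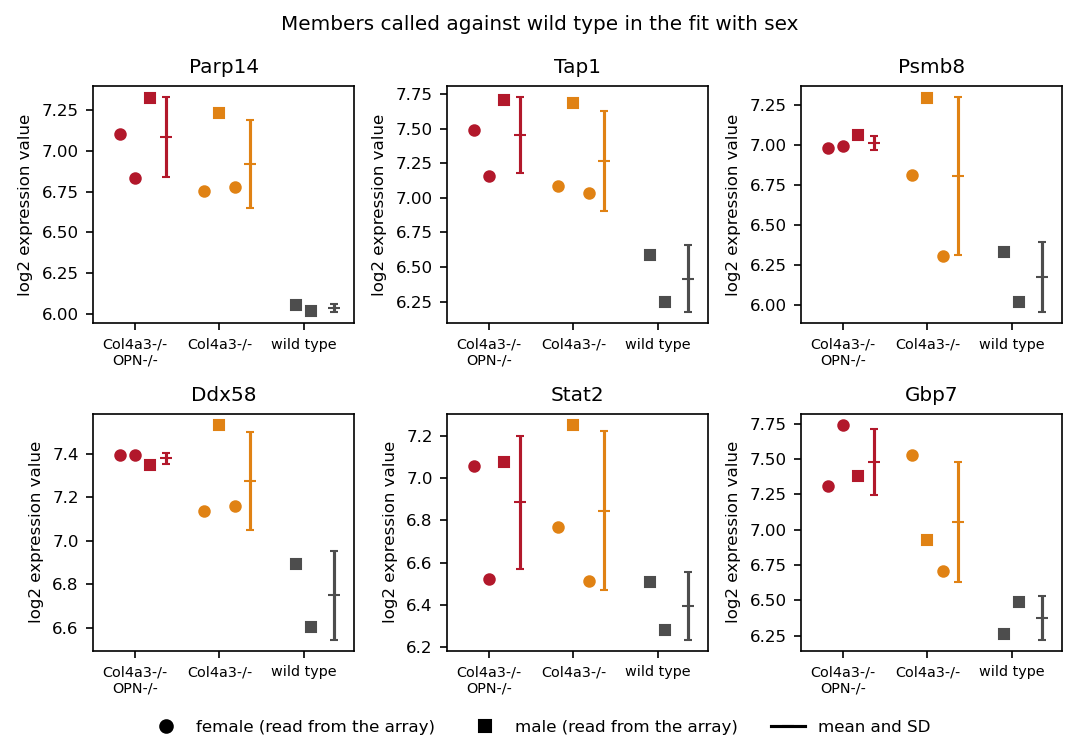
Log2 values of the 6 members called against wild type in the fit with sex, by genotype, with circles for mice read as female, squares for mice read as male, and the mean and SD beside each group. Parp14 and Tap1 show mutants well above wild type, and for Psmb8 the double mutants at 6.98 to 7.06 are closer together than the single mutants at 6.30 to 7.30.

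**Figure D4:**
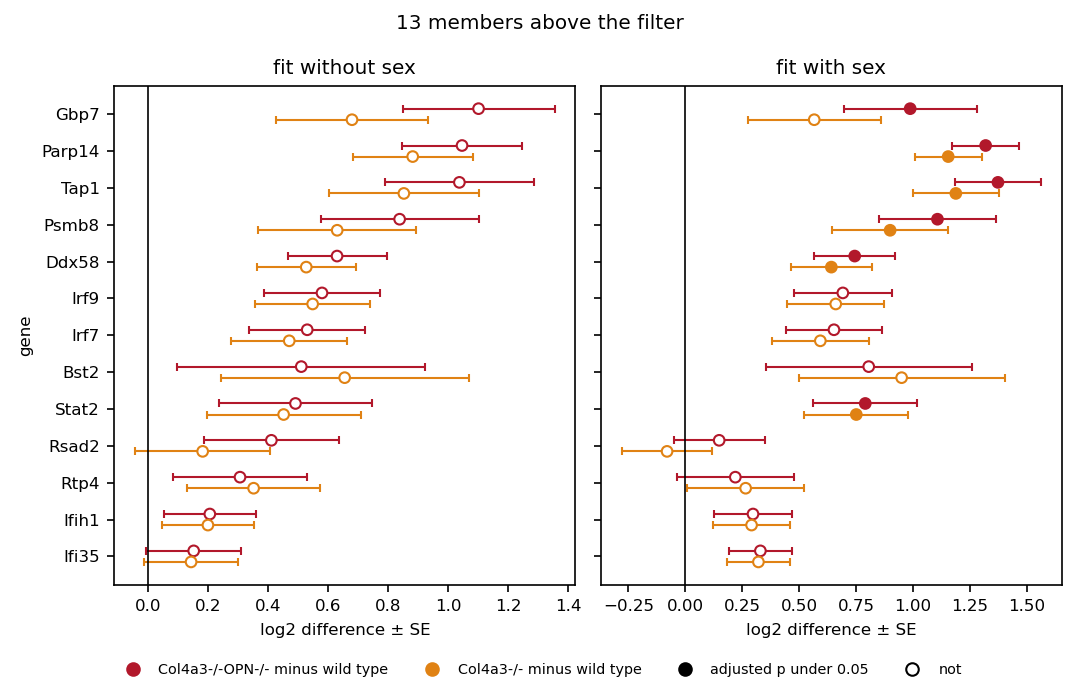
Differences from wild type on the log2 scale, with SE, of the 13 members above the filter, in double mutants (red) and single mutants (orange), from the fit without sex (left panel) and with sex (right panel). Filled points have an adjusted p under 0.05; they occur in the right panel alone, for 6 members in double mutants and 5 in single mutants.

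The loss of single arrays moved these counts, and the shares beside them are of all tested genes called higher in the same fit. Without single mutant 2, no member was called in single mutants with sex, as was no gene of 7145, and 3 were called in double mutants, against 4.49% of genes. Without wild type 2, 1 member was called in double mutants, against 0.518% of genes, and none in single mutants, against 0.35%. In single mutants 3 members were called without single mutant 1, against 6.61% of genes, and 3 without double mutant 1, against 5.88%. In the fit without sex, leaving out single mutant 2 raised the count in double mutants to 6 members, against 4.09% of genes, and left it at 0 in single mutants. The median difference of the 31 members in single mutants was 0.45, and 0.31 without single mutant 2.

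When the filter was left out, so that all 31 members and 22180 genes entered the fit with sex, 4 of 31 members were called higher in each comparison with wild type, against 2.08% of genes in double mutants and 2.05% in single mutants. Parp14, Oas2 and Tap1 were called in both, Irf1 in double mutants and Isg15 in single mutants. Oas2, Irf1 and Isg15 are named after their values were seen. Stat2, Ddx58, Psmb8 and Gbp7 were called with the filter and not without it (limma adjusted p between 0.0505 and 0.12 in double mutants). Oas2 differed by 1.26 (SE 0.17) in each genotype, with an adjusted p of 0.0268 in double mutants and 0.0258 in single mutants. Irf1 differed by 1.04 (SE 0.16, adjusted p = 0.0306) in double mutants and by 0.74 (SE 0.16, adjusted p = 0.0529) in single mutants. These calls without the filter also leaned on single arrays. Leaving out wild type 2 ended all of them in both genotypes, where no gene of 22180 was called higher. Leaving out single mutant 2 ended those in single mutants, Oas2 and Isg15 included, where again no gene was called higher. In double mutants 4 members were then called, against 1.37% of genes. Leaving out double mutant 1 left Parp14 alone in each genotype, against 0.0586% of genes in double mutants and 0.00902% in single mutants. Leaving out double mutant 3 raised the count to 8 in double mutants, against 4.34% of genes, and to 10 in single mutants, against 5.3%. Over all 8 arrays the counts lay between 0 and 8 in double mutants and between 0 and 10 in single mutants when 1 array was left out. No member was called without both the filter and the term for sex, where 15 of 31 members in double mutants and 13 of 31 in single mutants had an unadjusted p under 0.05, against 14.3% and 15.1% of all genes.

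The direct comparison of double with single mutants asks whether the loss of osteopontin changes these genes on top of the loss of Col4a3. No member was called in either fit, and neither was any gene (0% of 7145 without sex and 0% with sex). At an unadjusted p under 0.05 there was no member of 13 in either fit, against 104 genes (1.46%) without sex and 273 (3.82%) with sex. The median difference of the 31 members was 0.05, against 0.00 over all genes, and 22 of 31 were above 0. That median was 0.20 without single mutant 2 and -0.059 without single mutant 3, so its size and sign rest on single arrays. Of the 13 tested members, 11 were above 0, as were 50.4% of tested genes. Differences of the 31 members ranged from -0.24 to 0.42. The largest was that of Gbp7, at 0.42 (SE 0.23, adjusted p = 1 without sex, SE 0.22, adjusted p = 0.993 with sex), and the tested members with the next smallest p were Rsad2 at 0.23 (SE 0.20), Parp14 at 0.16 (SE 0.18) and Psmb8 at 0.21 (SE 0.24) without sex. The SE of the 13 differences lay between 0.14 and 0.37 without sex, so differences of this size were not detectable with these arrays.

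Psmb9 was the one member of 31 whose double mutants all lay above the single mutants, as did 3.32% of all genes and 2.02% of genes above the filter, where no member did so. It measured 6.43, 6.27 and 6.24 in double mutants, 6.05, 6.03 and 5.64 in single mutants, and 5.76 and 5.70 in wild type. Its probe set was below the filter, and without a filter its adjusted p was 1 in that comparison. It is named after its values were seen.

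The balance of members above and below 0 between the mutant genotypes differed between the female arrays and the 1 pair of male arrays. Between the 2 female double and the 2 female single mutants, 28 of 31 members were higher in double mutants, with a median of 0.21, where 50.9% of all genes were higher. Between the 1 male of each genotype, double mutant 3 and single mutant 2, 11 of 31 were higher in the double mutant, with a median of -0.19, where 48% of all genes were higher. Ifit2 showed the widest gap, at 0.55 in females and -0.97 in males, and Oasl2 followed at 0.80 and -0.53. Gbp7 had nearly the same difference in both, 0.41 in females and 0.45 in males. The interaction of genotype and sex among the 6 mutants was tested in limma and called no member and no gene, with a smallest adjusted p of 0.209 among tested members and 0.0985, that of Ifit2, without the filter. At an unadjusted p under 0.05 there were 2 of 13 tested members, against 913 of 7145 genes, and without the filter 8 of 31 members, against 2575 of 22180 genes. With 1 male of each genotype, sex and the individual mouse cannot be told apart.

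The 4 male arrays alone give a comparison with wild type that needs no term for sex. Double mutant 3 was above the wild type mean for 28 of 31 members, with a median of 0.50, where 45.4% of all genes were above. Single mutant 2 was above it for 30 of 31 members, with a median of 0.60, where 44.9% of all genes were above. Parp14 differed by 1.28 and Tap1 by 1.29 in the double mutant male, and by 1.19 and 1.27 in the single mutant male, with no test since each is 1 mouse.

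Arrays of 1 genotype also differed in how many members were raised. In double mutants 29, 27 and 26 of 31 members were above both wild type arrays, and the median deviation from the wild type mean was 0.62, 0.53 and 0.50. In single mutants the counts were 25, 29 and 22, with median deviations of 0.35, 0.60 and 0.23. Single mutant 2 held the highest of the 8 values for 15 of 31 members and single mutant 3 for none. Wild type 2 held the lowest value for 16 members and wild type 1 for 8. These counts per array were not made over all genes, so they cannot be read as particular to the members. Over the genes above the filter, single mutant 2 correlated least with wild type, at 0.80 with wild type 1 and 0.76 with wild type 2. The other mutant arrays correlated with wild type at 0.85 to 0.93.

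Markers of macrophages were also higher in the mutants than in wild type. The mean of 12 macrophage genes was 7.77, 8.06 and 7.74 in double mutants, 6.93, 8.50 and 6.91 in single mutants, and 6.06 and 6.17 in wild type. In the fit with sex 7 of the 8 tested macrophage genes rose in each comparison. The exception, Csf1r, differed by 0.22 in each, with a limma adjusted p of 0.577 in double mutants and 0.576 in single mutants. Over all tested genes 6.4% were called higher in double mutants and 7.31% in single mutants. Leaving out single mutant 2 ended all 7 calls in single mutants, where no tested gene was called, and none in double mutants, against 4.49% of genes. Without wild type 1 there were 2 calls in each genotype, against 2.86% of genes in double mutants and 3.58% in single mutants. Without wild type 2 there was 1 in each, against 0.518% and 0.35%. Without double mutant 1 there were 7 in double mutants and 4 in single mutants, against 5.12% and 5.88%. No macrophage gene was called in either comparison without the term for sex. Single mutant 2 was highest in macrophage markers, as it was for the most members, and lowest in proximal tubule markers, at 9.79. Proximal tubule means were 10.79, 10.67 and 10.64 in double mutants, 10.92 and 11.21 in the other single mutants, and 11.33 and 11.37 in wild type.

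T and NK cell genes were low on most arrays, and none of the 10 measured passed the filter, which is on the mean over all 8 arrays. Double mutant 1 was an exception for some of them. Its Cd3e measured 7.32, against 5.52 and 5.30 in wild type, and its Cd3g 7.04, against 5.18 and 5.03. Its Cd3d did not differ, at 4.97 against 4.92 and 4.97. These genes are named after their values were seen. The mean of the 10 T and NK cell genes was 5.57, 5.32 and 5.18 in double mutants, 5.04, 5.24 and 5.03 in single mutants, and 4.98 and 4.97 in wild type. Of the 10, 5 were at or below the median probe set. None of the 4 B cell, 6 dendritic cell or 8 neutrophil genes measured passed the filter either, and 7 of the 8 neutrophil genes were at or below the median probe set. The means of the B cell genes lay between 4.89 and 5.59 in double mutants and between 4.85 and 4.93 in single mutants, against 4.86 and 4.95 in wild type. The value of 5.59 was that of double mutant 1. The part of these cells in the values of the interferon-induced genes was not tested.

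**Figure D5:**
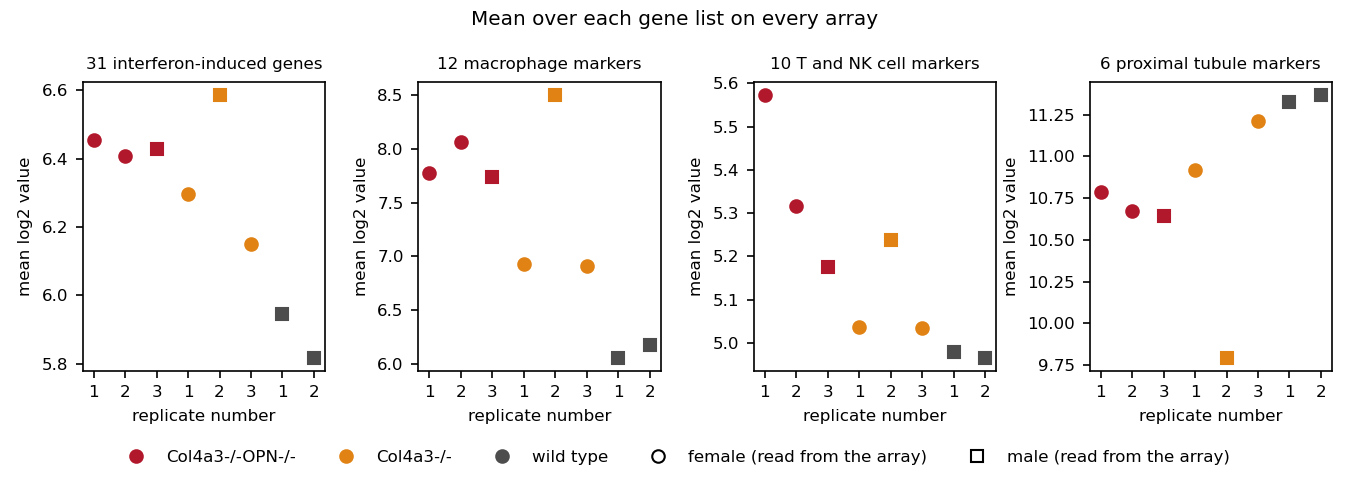
Mean log2 value over the 31 members and over 3 marker lists on each array, with circles for mice read as female and squares for mice read as male; each panel has its own scale. Single mutant 2 is highest for the members (6.59) and for macrophage markers (8.50) and lowest for proximal tubule markers (9.79), and the wild type arrays are lowest for the members.

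In the rest of the pathway, the 7 interferon genes measured were all below the filter, at different levels. Ifnb1 measured 4.49 to 4.54 in double mutants and 4.44 to 4.48 in single mutants, against 4.42 and 4.51 in wild type. Ifng measured 4.82 to 4.88 in double mutants and 4.76 to 4.81 in single mutants, against 4.84 and 4.90 in wild type, and Ifne lay between 4.47 and 4.57 on all arrays. These 3 genes lay under every array's median. Ifnl3 lay between 5.21 and 5.78, Ifna4 between 6.16 and 6.51, Ifna1 between 6.44 and 6.76, and Ifnl2 between 6.39 and 7.10, with mutant and wild type arrays overlapping in the first 3, while for Ifnl2 the single mutants (6.41 to 6.49) lay below both wild type arrays (6.65 and 6.68) and the double mutants on both sides. The interferon alpha genes are close copies of one another, as are the lambda genes, so their probe sets may share signal. The interferon genes are named after their values were seen. Of 13 ligands and receptors measured, 5 were tested. In the fit with sex 2 rose in double mutants, against 6.4% of tested genes, and 1 in single mutants, against 7.31%. None fell, and without sex none was called.

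Ifngr2, the signalling chain of the interferon gamma receptor, measured 8.54, 8.64 and 8.82 in double mutants, 8.23, 9.18 and 8.15 in single mutants, and 7.73 and 7.95 in wild type. It rose by 1.24 (SE 0.22, adjusted p = 0.0127) in double mutants and by 1.09 (SE 0.22, adjusted p = 0.0153) in single mutants in the fit with sex. Ifngr1, the ligand-binding chain, rose in double mutants by 1.19 (SE 0.34, adjusted p = 0.0401), while its difference of 0.71 (SE 0.34) in single mutants had an adjusted p of 0.144. Ifnar1 and Ifnar2, the chains of the type I receptor, differed by 0.54 and 0.39 in double mutants (adjusted p = 0.101 and 0.122) and by 0.30 each in single mutants (adjusted p = 0.315 and 0.206), and were not called. The calls of Ifngr2 were lost in both genotypes without wild type 2, and that in single mutants without wild type 1 or single mutant 2. The call of Ifngr1 in double mutants was lost when either wild type array, single mutant 1 or 3, or double mutant 1 or 2 was left out.

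Of 7 tested genes of signal transduction and its inhibitors, 2 rose in single mutants and none in double mutants with sex. Over all tested genes 7.31% and 6.4% were called higher in these comparisons. Jak2, a kinase of the interferon gamma receptor, differed by 0.76 (adjusted p = 0.0534) in double mutants and 0.88 (adjusted p = 0.0325) in single mutants, and Trim24, a transcriptional cofactor that restrains interferon signalling in mouse liver, by 0.55 (adjusted p = 0.0545) and 0.68 (adjusted p = 0.0274). These values straddle the threshold and do not show a difference between the genotypes. Both calls were lost without single mutant 2 or without either wild type array, and that of Jak2 also without any 1 double mutant. None of the 4 tested nucleic acid sensors and adaptors was called.

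Among 16 tested genes of other interferon-induced effectors, 5 rose in each comparison with sex: Slfn2, Sp100, Samhd1, Herc6 and Adar. Over all tested genes 6.4% were called higher in double mutants and 7.31% in single mutants. Slfn2, a regulator of immune cell quiescence, had the largest difference, at 1.91 (SE 0.29, adjusted p = 0.0108) in double mutants and 1.49 (SE 0.29, adjusted p = 0.0129) in single mutants. Samhd1, a nucleotide-degrading enzyme that restricts retroviruses, differed by 1.12 in double mutants and 1.06 in single mutants. The editing enzyme Adar differed by 0.60 in double mutants and 0.61 in single mutants. Leaving out single mutant 2 ended all 5 calls in single mutants and that of Adar in double mutants, and leaving out wild type 2 ended all 5 in both genotypes. Slfn2 and Herc6 kept their calls in both genotypes without any 1 of the other 6 arrays. The calls of Samhd1 and Sp100 were also lost in both genotypes without wild type 1. Adar was the least stable. Its call in double mutants was lost without any 1 array other than wild type 1. In single mutants it was lost without any 1 array other than wild type 1 or double mutant 1.

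Of 7 tested genes of the MHC class I pathway outside the members, B2m, the light chain of MHC class I, rose by 0.67 (SE 0.17, adjusted p = 0.0278) in double mutants and by 0.60 (SE 0.17, adjusted p = 0.0347) in single mutants. H2-K1, a heavy chain, rose in double mutants by 1.28 (SE 0.27, adjusted p = 0.0187) and differed by 0.87 (SE 0.27, adjusted p = 0.0515) in single mutants. The other 5 were not called. The calls were thus 2 of 7 in double mutants, where 6.4% of all tested genes were called higher, and 1 of 7 in single mutants, where 7.31% were. The call of B2m in single mutants was lost without single mutant 1 or 2, either wild type array or double mutant 1. In double mutants the calls of B2m and H2-K1 were both lost without either wild type array or double mutant 3, and that of B2m also without single mutant 2. The interferon-gamma-inducible GTPases outside the members had 1 tested gene, Iigp1, at 6.92, 6.64 and 8.39 in double mutants, 7.97, 7.56 and 6.02 in single mutants, and 6.41 and 5.52 in wild type, which was not called. All these calls were made with the term for sex, and none was made without it. Calls over all tested genes also fell when single arrays were left out. Without wild type 2, 0.518% were called higher in double mutants and 0.35% in single mutants. The shares were 2.86% and 3.58% without wild type 1, and 4.49% and 0% without single mutant 2.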

How the data were processed

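RNA of whole kidney from 8 mice in 3 genotype groups was hybridized to 1 array each. The deposited values lie between 4.20 and 13.43, and that range was read as the authors' log2 scale. The sources used here do not say how the authors corrected, summarized and normalized them. The RNA and labelling kits in the labels are common for small RNAs, while the probe sets are those of a gene array. All 8 value columns were used as deposited, and the small number of arrays limits how precise the values are.

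Of 33793 probe sets, 23521 named 1 gene, 1814 several and 8458 none. Each of 22180 genes was represented by its probe set of highest mean. A gene was tested if that mean exceeded 6.64, the 75th percentile over all probe sets, as 7145 did. The 3 groups were compared in 1 limma 3.58.1 model in R 4.3.3 (lmFit, eBayes), with 5 residual degrees of freedom, or 4 with a term for sex. Two-sided p-values were adjusted over the tested genes (Benjamini-Hochberg), with calls under 0.05. The fit was tested on simulated data. Sex was read from Xist against the mean of the Y-linked genes.

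The members, their roles and the gene lists were chosen with earlier results of these data known, so lists are described by counts and medians. Members given on every array were those called in any comparison and, where fewer than 10 were called, those with the smallest p up to 10, with others by range; further ones were added after their values were seen. Receptors and called genes of the lists are named, up to 6 per list; 1 further signalling gene of that rule and the osteopontin gene are not analysed here. Replicate numbers were not taken as pairs: deviations of arrays with the same number correlated between -0.58 and 0.26. Python 3.11.15 with matplotlib 3.10.9 drew the plots. Other settings tried are a filter at the 50th percentile or none, 3 scalings between arrays (cyclic loess, median centring, quantile), array weights, a robust prior with an intensity trend, a fit of just 2 groups, a block for the replicate number, the mean over a gene's probe sets, each array left out, and each sex alone.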

Additional observations from a re-analysis of the deposited data

How the results depend on the processing

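Of 164 other values of the counts and medians, 142 stayed within 1.5 times the count or within 0.14 of the median, the SD between arrays of a group. Of 1140 values of single members, 1013 kept their direction and side of the threshold, 62 lost a call, 49 gained one and 16 turned in sign. The number of members called between double mutants and wild type was 0 without sex, and became 7 with array weights (8.4% of all genes called higher), 3 with only the 2 groups compared (2.7%) and 6 with a sex term, with 0 to 6 when an array was left out (6 without single mutant 2). With sex it was 6, and became 0 without the sex term and 1 to 6 when an array was left out (1 without wild type 2, 3 without single mutant 2). Between single mutants and wild type it was 0 without sex, and became 2 of 13 with array weights (4.04% of genes) and 5 with a sex term. With sex it was 5 of 13, and became 8 of 28 at the 50th percentile (5.78% of genes), 2 of 13 with array weights (3.46%), 0 without the sex term and 0 to 7 when an array was left out (0 without wild type 2 or single mutant 2). The median difference of double mutants from wild type was 0.69 with a sex term. That of single mutants from wild type was 0.60 in males alone and 0.31 to 0.59 when an array was left out. Between double and single mutants it was 0.21 in females alone, -0.19 in males alone and -0.059 to 0.20 when an array was left out (0.20 without single mutant 2). Counts for a sex alone that would leave a group with fewer than 2 arrays were not run. Chosen after seeing the data, each array was also left out of the fit with sex and no filter, and out of the calls of the other gene lists. The former gave 0 to 8 members called in double mutants (0% to 4.34% of genes) and 0 to 10 in single mutants (0% to 5.3%). The causes were not tested.

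Signs turned for 4 members, each without a call. Rsad2 between single mutants and wild type was -0.080 with a sex term and -0.039 to 0.40 when an array was left out of the fit without sex. In the fit with sex it was 0.037 with median centring, 0.059 with only the 2 groups compared, 0.18 with no sex term and -0.36 to 0.14 when an array was left out, and between double mutants and wild type -0.072 to 0.43. Bst2 without sex was -0.17 to 1.19 in double mutants and -0.022 to 1.33 in single mutants when an array was left out. Rtp4 with sex was -0.081 in double mutants with only the 2 groups compared, -0.081 to 0.82 when an array was left out there, and -0.34 to 0.57 in single mutants. Psmb8 between double and single mutants was -0.042 to 0.45 without sex and -9e-04 to 0.43 with sex when an array was left out.

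With the replicate number as a block and with sex, 7 of 13 members were called in double mutants (7.19% of genes called higher). In single mutants 6 of 13 were called (7.87%). Without sex the block gave 0 in both, where 0% of genes were called. With sex, 5 of each were among the members called before. The block left 0 called between the mutants, gave medians of 0.54, 0.49 and 0.05, moved Rsad2 with sex in single mutants to 0.011, and ended the call of Gbp7 in double mutants (adjusted p = 0.0557).

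With 2 wild type mice, both male, and 5 or 4 residual degrees of freedom, the precision is low. The 18 members below the filter entered no test other than those without the filter or at the 50th percentile, and their probe sets are dim.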
